A study of Mus musculus with 17 samples.

Results

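The genes described here encode the proteasome, its assembly chaperones and its regulators in mouse liver. They were chosen by name, as every gene symbol that begins with Psma, Psmb, Psmc, Psmd, Psme, Psmf or Psmg followed by a digit, leaving out 2 inducible proteolytic subunits. The RNA table held 46 such genes among 12334. Of these, 16 encode subunits of the core particle, 17 subunits of the regulatory particle, 7 assembly chaperones and 5 alternative activators or the inhibitor of the core. Psme2b matched by name alone and was kept out of the group values. In the H3K9ac table, 42 of 13830 promoter regions (1000 bases or less from a start site, by the distances the authors list) carried a member's name, 1 region per gene. One of them belongs to Psmc3ip, a meiotic recombination gene that matched by name alone, which leaves 41 regions of proteasome parts.

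All mice were C57BL/6, a common inbred laboratory strain, and had received either a high-fat diet (HFD, 60% of kcal from fat) or a control diet (CD, 18% of kcal from fat) for 10 weeks. Liver RNA was sequenced in 4 libraries per diet, lettered A to D. Acetylation of lysine 9 on histone H3 (H3K9ac), a mark of active promoters, was mapped by chromatin immunoprecipitation and sequencing in 3 libraries per diet (A, C and D under CD; A, B and D under HFD). The labels do not state that the libraries of a diet came from separate animals, the age or sex of the mice, or that a shared letter means a shared liver, so p-values measure the spread between these libraries.

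The proteasome degrades proteins that carry a chain of ubiquitin. Its core particle is a barrel of 4 stacked rings: the outer rings of alpha subunits gate the entrance, and the inner rings of beta subunits hold the proteolytic sites. The regulatory particle caps the barrel. Its base contains a ring of ATPases that unfold the substrate, and its lid removes the ubiquitin. Subunits are needed in fixed proportions, and in mammals their genes are commonly induced together by the transcription factor Nfe2l1 when proteasome activity is limiting. In liver, a tissue with heavy protein traffic, the system disposes of damaged and short-lived proteins.

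The RNA libraries held 31802893 to 37596560 counts each and the H3K9ac libraries 9255635 to 12149497. All 8 hepatocyte markers were detected in every library, and their summed level was 84390 to 101700 CPM (counts scaled to library size) under CD and 93530 to 119900 CPM under HFD. Since RNA came from whole tissue, fewer cells of a type and less RNA per cell cannot be told apart.

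Levels between genes were compared per length, with the log2 FPKM values that the authors deposited. Core and regulatory subunits were both abundant in CD liver. The median core subunit stood at a log2 FPKM level of 6.14 and the median regulatory subunit at 5.77, against 2.40 for the median of all 12334 genes, and 44 of the 46 members lay above that median gene. The regulatory subunits kept to a narrow range: all 17 lay between 5.10 and 6.39, with an SD across genes of 0.34. The core subunits spread over an SD of 1.94, which became 0.46 when Psma8 and Psmb10 were left out.

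Among core subunits the highest level was that of Psmb7, which carries the trypsin-like site, at a log2 FPKM level of 6.80 ± 0.12 (SD, n = 4). Psma4 and Psmb4, structural subunits of the alpha and beta rings, followed at 6.71 ± 0.12 and 6.70 ± 0.18, closer to Psmb7 than the spread between libraries. Psmb10, the inducible subunit that takes the place of Psmb7 in the immunoproteasome, stood at 3.85 ± 0.10. Psma8, an alpha subunit known from the testis, was lowest at -1.16 ± 0.56. Its counts correspond to 0.400 to 1.06 CPM in the CD libraries, far above the 0.0842 to 0.0919 CPM that 3 counts represent there. Psmb11, the subunit of the thymus proteasome, was not among the genes of the RNA table.

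In the regulatory particle the highest level was that of Psmc1, an ATPase of the base, at a log2 FPKM level of 6.39 ± 0.10 in CD. The lowest was that of Psmd13, a structural subunit of the lid, at 5.10 ± 0.08. The ATPases had a median of 5.93, the base subunits without ATPase activity 6.05 and the lid 5.57. Assembly chaperones, which act on intermediates and not in the finished particle, were below every regulatory subunit, with a median of 3.32 and a range from 2.42 for Psmg4 to 4.21 for Psmd5. The alternative activators differed widely: Psme1 and Psme2, which form 1 ring-shaped activator of the core, stood at 6.42 ± 0.18 and 5.78 ± 0.19. The nuclear activator Psme3 and the large single-chain activator Psme4 were at 4.88 ± 0.08 and 4.83 ± 0.18. Psmf1, an inhibitor of the isolated core, was lowest of this group at 3.0 ± 0.18. Reads of Psme2 and its near copy Psme2b could be split between them by the counting, so both values are uncertain.

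**Figure D1:**
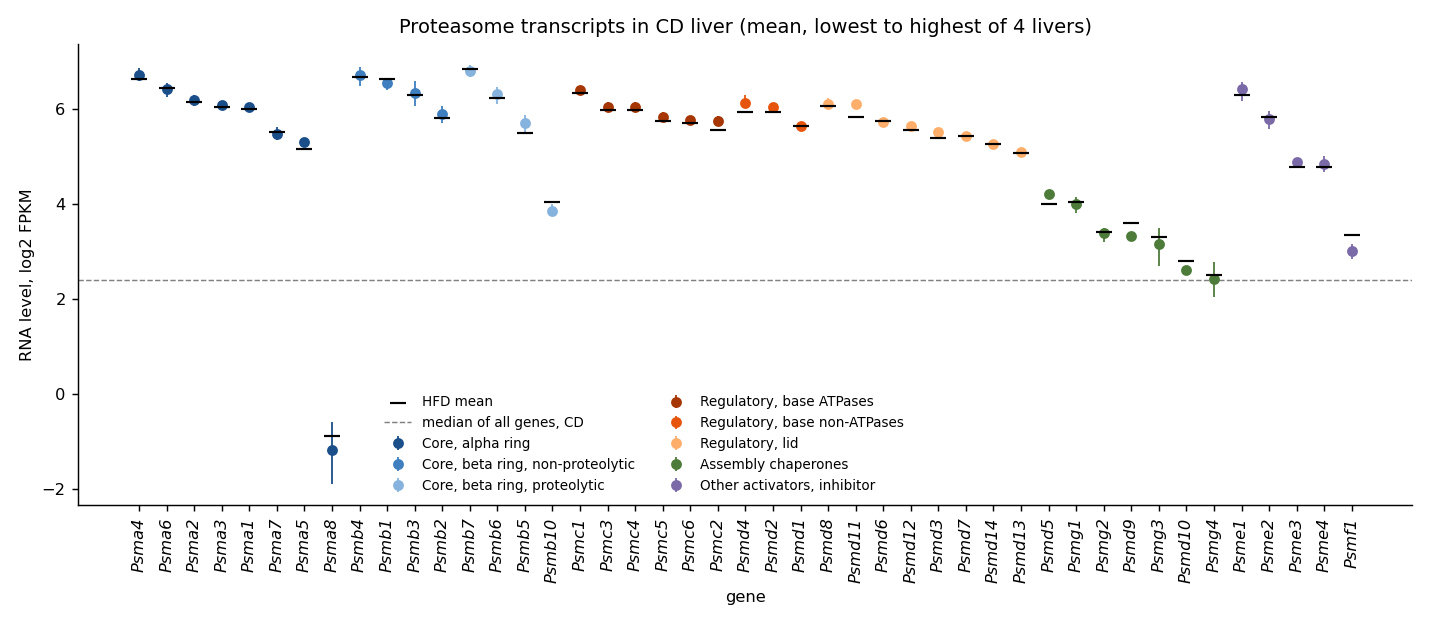
RNA level (log2 FPKM, deposited values) of each proteasome gene in CD liver, grouped by its place in the complex. Points are means and bars run from the lowest to the highest of 4 libraries, black dashes are HFD means, and the dashed line is the median of all genes (2.40). Regulatory subunits lie between 5.10 and 6.39, Psma8 and Psmb10 lie below the other core subunits, and the 7 assembly chaperones, at 2.42 to 4.21, lie below every regulatory subunit.

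Diets were then compared for each gene, as log2 of HFD over CD with edgeR's quasi-likelihood test and Benjamini-Hochberg adjustment over all genes. No proteasome gene passed the threshold of 0.05: 0 of 46 were called, against 7.27% of all genes. At an unadjusted p under 0.05 there were 4 of 46 (8.7%), Psmd11, Psmf1, Psmd9 and Psmd5, against 20.4% of all genes. In the authors' deposited table, no member had a false discovery rate under 0.05, against 10.2% of all genes. DESeq2 called 2 of 46, against 11.4% of all genes: Psmd11 lower (adjusted p = 0.0196) and Psmf1 higher (adjusted p = 0.0438).

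The estimates were small and fairly precise. The median absolute log2 difference was 0.07 among the members and 0.16 among all genes. For 42 of 46 members (91.3%) the 95% interval lay within a 1.5-fold difference in either direction, against 57.8% of all genes and 75.2% of genes in the upper range by CPM, that is at or above the median gene. This held for 17 of 17 regulatory subunits and 14 of 16 core subunits, the exceptions being Psma8 and Psmb10. Median log2 differences were -0.03 for the core and -0.06 for the regulatory particle, against 0.01 for all genes. In the regulatory particle 14 of 17 estimates lay below 0, and in the core 10 of 16, against 5934 of 12334 genes. Levels of the members moved together between libraries, as described below, so the genes in these counts are not independent.

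Within the core, the alpha ring had a median log2 difference of -0.03 and a lowest value of -0.13 for Psma5 (SE 0.11, adjusted p = 0.601), which was -0.24 without HFD A and -0.05 without HFD C. Psma5 measured 49.1, 46.7, 46.2 and 51.1 CPM in CD A to D and 52.2, 45.3, 36.4 and 42.2 CPM in HFD A to D. HFD A lay above all CD libraries and the other three below them. Of the beta subunits without a proteolytic site, Psmb1 had the smallest p, with a log2 difference of 0.09 (SE 0.13, adjusted p = 0.771). It measured 105, 87.6, 91.9 and 105 CPM under CD and 129, 99.8, 96.1 and 89.7 CPM under HFD. HFD A was the highest library, and the other three lay inside the CD range.

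The constitutive proteolytic subunits showed no call either. Psmb5, the chymotrypsin-like site, had a log2 difference of -0.18 (SE 0.16, adjusted p = 0.629). Psmb6, the caspase-like site, measured 91.3, 79.2, 71.0 and 89.7 CPM under CD and 106, 75.8, 73.0 and 62.1 CPM under HFD, a log2 difference of -0.07 (SE 0.16, adjusted p = 0.883). Psmb7 measured 118, 98.9, 104 and 114 CPM under CD and 139, 110, 108 and 93.0 CPM under HFD, a log2 difference of 0.05 (SE 0.13, adjusted p = 0.885). In both genes HFD A was the highest and HFD D the lowest of the 8 libraries.

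Psmb10, which interferon-gamma induces, measured 20.2, 17.6, 17.5 and 17.9 CPM under CD and 29.7, 21.4, 14.1 and 21.02 CPM under HFD. HFD A, B and D exceeded every CD library and HFD C lay below them all. Its log2 difference of 0.24 (SE 0.19) did not pass the test (adjusted p = 0.558), and was 0.03 without HFD A and 0.40 without HFD C. Psma8 measured 0.869, 0.400, 0.623 and 1.06 CPM under CD and 1.46, 0.934, 0.731 and 0.547 CPM under HFD, and the diets overlapped (log2 difference 0.33, SE 0.37, adjusted p = 0.715).

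In the regulatory particle the lid subunit Psmd11, which helps to hold the lid and the core together, had the smallest p. It measured 117, 122, 114 and 123 CPM in CD A to D and 104, 94.5, 104 and 94.96 CPM in HFD A to D. Every HFD library was below every CD library. The means were 119 ± 4.26 and 99.4 ± 5.37 CPM (SD, n = 4 each), a log2 difference of -0.26 (SE 0.08, 95% interval -0.45 to -0.08) with an adjusted p of 0.0945.

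Psmd2, the large scaffold subunit of the base, measured 206.2, 195.7, 205.9 and 199.8 CPM under CD and 176.7, 184.2, 195.5 and 186.5 CPM under HFD. Its diets were also separate, by a narrow gap, with a log2 difference of -0.12 (SE 0.08, adjusted p = 0.476). Among the ATPases the smallest p was that of Psmc2, at 103, 91.4, 91.5 and 97.8 CPM under CD and 104, 78.0, 80.7 and 77.0 CPM under HFD. HFD A lay above all CD libraries and the other three below them. The log2 difference of Psmc2 was -0.18 (SE 0.11, adjusted p = 0.445), and became -0.30 (adjusted p = 0.0495) without HFD A. There it was the 1 member called of 46, against 8.98% of all genes. Psmc1 and Psmd13, the most and least abundant subunits of the particle, differed by -0.06 (SE 0.12; adjusted p = 0.862) and by -0.02 (SE 0.10; adjusted p = 0.945) on the log2 scale.

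**Figure D2:**
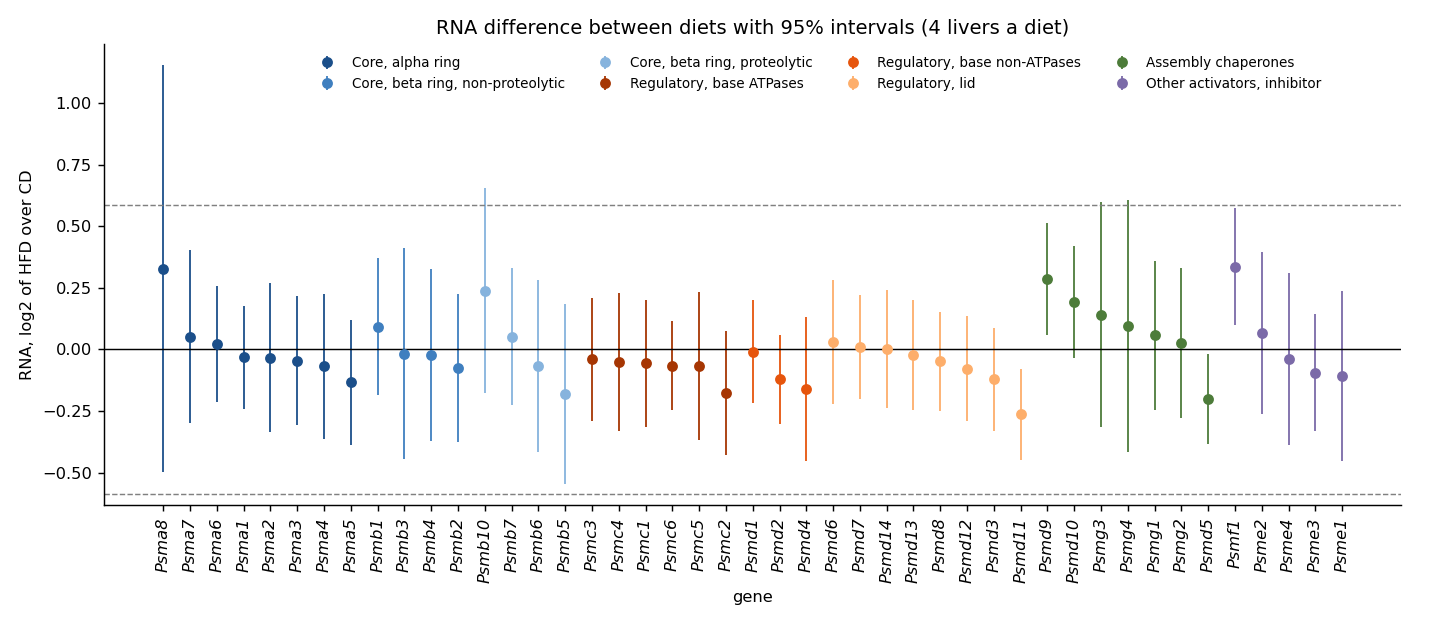
RNA difference between the diets (log2 of HFD over CD, edgeR) for each proteasome gene, with 95% intervals, 4 libraries per diet. Dashed lines mark a 1.5-fold difference. All 17 regulatory subunits have intervals inside these lines, and those of Psma8, Psmb10, Psmg3 and Psmg4 reach beyond them.

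Assembly chaperones had a median log2 difference of 0.09, with 6 of 7 estimates above 0, against 6400 of 12334 genes. Psmd9, a chaperone of the base, measured 25.5, 26.1, 24.6 and 27.2 CPM in CD A to D and 37.0, 30.2, 29.8 and 29.3 CPM in HFD A to D. All HFD libraries were above all CD libraries, with HFD A apart from the other three. The log2 difference was 0.29 (SE 0.10, adjusted p = 0.136), and 0.19 without HFD A. Psmd5, a second base chaperone, named after its values were seen, measured 36.8, 36.2, 39.1 and 38.8 CPM under CD and 33.4, 34.0, 32.2 and 31.7 CPM under HFD. Its diets did not overlap in the other direction, with a log2 difference of -0.20 (SE 0.08, adjusted p = 0.197).

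Psmf1, the inhibitor of the core, measured 31.7, 25.4, 25.8 and 31.9 CPM in CD A to D and 39.0, 35.8, 34.6 and 35.5 CPM in HFD A to D. Every HFD library lay above every CD library. The means were 28.7 ± 3.56 and 36.2 ± 1.92 CPM (SD, n = 4 each), a log2 difference of 0.34 (SE 0.11) with an adjusted p of 0.096. In all, diets did not overlap with HFD higher for 2 of 46 members (4.35%), against 7.26% of all genes. They did not overlap with HFD lower for 3 of 46 (6.52%), against 7.01% of all genes. Counts this small, with shares this near to those of all genes, say little about the members.

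The larger differences were between libraries of the same diet, and they ran through whole particles. Relative to the CD mean, the 16 core genes averaged a log2 level of 0.14, -0.16, -0.09 and 0.11 in CD A to D. In HFD A to D they averaged 0.38, -0.02, -0.17 and -0.23. The 17 regulatory genes averaged 0.06, -0.03, -0.05 and 0.02 in CD, and 0.13, -0.13, -0.09 and -0.23 in HFD. HFD A was the highest of the 8 libraries for 16 of 16 core genes and 13 of 17 regulatory genes, against 25.2% of all genes. HFD D was the lowest for 9 of 16 core and 13 of 17 regulatory genes, against 13% of all genes. The diet medians moved with these libraries: without HFD A they were -0.18 in the core and -0.15 in the regulatory particle, and without HFD D 0.05 and 0.01. The core median was also above 0 without CD A (0.02), CD D (0.002) or HFD C (0.03).

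Core and regulatory genes moved in step. Over the 8 libraries, with each diet's mean removed, the median correlation between pairs of core genes was 0.91, between pairs of regulatory genes 0.77 and between a core and a regulatory gene 0.78. Pairs of genes from the upper range by CPM had a median of 0.01. These are descriptions over 8 libraries that all genes share. The comparison genes were not matched to the members by exon length. The correlations were not repeated with the scaling by exon length described below. The within-diet SD of the log2 level was larger in the core, with a median of 0.21 per gene, than in the regulatory particle, with 0.12. The core minus regulatory difference ran from -0.08 to 0.25 under HFD and from -0.13 to 0.09 under CD, so the diets overlapped.

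Exon length moved with this pattern. In the RNA table core genes had a median exon length of 1036 bases (731 to 1693) and regulatory genes 1564 bases (1277 to 3256). Among genes in the upper range by CPM, the 379 with under 1000 exon bases had a median log2 level of 0.46 in HFD A and -0.26 in HFD D relative to the CD mean. The 4530 with 2000 or more stood at -0.09 and 0.05. The 12 proteasome genes under 1000 bases stood at 0.35 and -0.23, and the 8 members of 2000 bases or more at -0.06 and -0.12. Between 1000 and 2000 bases, the 26 members stood at 0.22, -0.09, -0.09 and -0.21 in HFD A to D. The 1258 genes of that length in the upper range stood at 0.29, 0.06, -0.05 and -0.11.

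Offsets per library were interpolated over exon length between the medians of 20 length classes, taken from genes in the upper range by level. A scaling with these offsets was therefore added after the values above were seen. Under it the core mean became -0.0174, -0.0723, -0.0798 and -0.0598 in HFD A to D, and ranged from -0.0167 to 0.03 over the CD libraries, so that HFD A and the lowest CD library were nearly equal. The regulatory mean became -0.13, -0.20, -0.05 and -0.13 in HFD A to D, against values from -0.04 to 0.07 over the CD libraries. With this scaling every HFD mean lay below every CD mean in both particles, by a narrow margin. Estimates of the diet difference lay below 0 for 13 of 16 core genes and 17 of 17 regulatory genes. The share of all genes below 0 was not counted under this scaling, and the members are not independent. Medians were -0.09 in the core and -0.12 in the regulatory particle, against -0.02 in all genes. Under this scaling 2 of 46 members passed the threshold, against 11.7% of all genes. They were Psmb5 (log2 difference -0.24, SE 0.06, adjusted p = 0.0382) and the ubiquitin receptor Psmd4 (-0.24, SE 0.07, adjusted p = 0.0493), with Psmd11 just outside (-0.29, SE 0.09, adjusted p = 0.0593). RNA quality was not measured in the files, and its part was not tested.

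**Figure D3:**
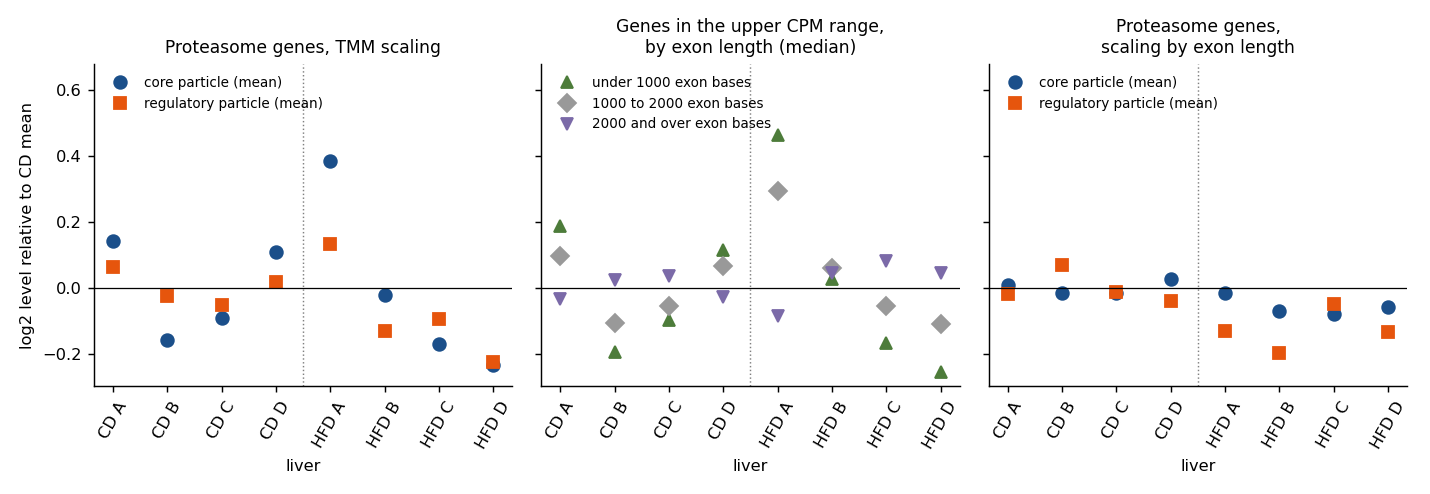
Log2 RNA level in each library relative to the CD mean. Left, means of the 16 core and 17 regulatory genes with TMM scaling. Middle, medians of genes in the upper range by CPM in 3 classes of exon length. Right, the proteasome means after scaling by exon length. HFD A stands at 0.38 for the core on the left, beside 0.46 for genes under 1000 bases in the middle, and at -0.02 on the right.

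Markers of other liver cells also differed between these libraries. HFD A had the lowest sum over 8 of 8 measured Kupffer cell and macrophage markers, 111 CPM, and HFD D the highest, 315 CPM, with CD between 146 and 209 CPM and HFD B and C at 179 and 210 CPM. Sums of 8 endothelial markers ran from 142 CPM in HFD A to 271 CPM in HFD D, against 168 to 232 CPM under CD. For 8 stellate cell markers the sums ran from 188 CPM in HFD A to 391 CPM in HFD D, and 259 to 309 CPM under CD. The 5 cholangiocyte markers summed to 35.5, 39.3, 40.5 and 61.0 CPM in HFD A to D and 57.7 to 68.5 CPM under CD. A sum follows the most abundant marker. The mean log2 level of these 5 markers, relative to CD, was -1.10, -0.66, -1.07 and -0.53 in HFD A to D. Under CD it ran from -0.16 to 0.21, above every HFD library. One of these markers, the transcription factor Sox9, fell (log2 difference -1.45, SE 0.27, adjusted p = 0.00987), while 0 of the 8 hepatocyte, 8 endothelial, 8 macrophage, 8 stellate cell and 4 lymphocyte markers passed the test. The 4 lymphocyte markers summed to 10.1 to 12.8 CPM under CD and 9.08 to 19.2 CPM under HFD, highest in HFD D. No marker of these lists was at 0 in any library, and their part in the proteasome values was not tested.

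Other genes of the pathway were counted from fixed lists. Of 20 measured proteasome-associated factors and ubiquitin receptors, 0 rose and 1 fell, with a median log2 difference of -0.11. That is 1 of 20 called, against 7.27% of all genes. The gene that fell was Ubqln2, a shuttle that carries ubiquitylated proteins to the proteasome. It measured 27.2, 31.9, 29.2 and 24.8 CPM under CD and 17.9, 21.1, 19.8 and 23.2 CPM under HFD, all HFD libraries below all CD libraries (log2 difference -0.46, SE 0.12, adjusted p = 0.0381). The list had 0 calls without CD A, CD B, CD C, HFD B or HFD C, where 3.88% to 6.56% of all genes were called. It had 4 that fell without HFD A, against 8.98% of all genes called there. Of 13 genes for factors that act on proteasome gene transcription, 0 passed the test, with a median log2 difference of 0.11. Without HFD A, 1 of them passed, against 8.98% of all genes. Nfe2l1 differed by 0.11 on the log2 scale (SE 0.10, adjusted p = 0.638) and its relative Nfe2l2 by 0.32 (SE 0.14, adjusted p = 0.241).

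Of 15 genes for ubiquitin and its activating and conjugating enzymes, 0 passed the test (median log2 difference -0.05). Of 17 interferon-gamma and antigen processing genes, 1 rose and 0 fell, against 7.27% of all genes called, with a median log2 difference of 0.36 (0.26 without HFD D). The riser was Gbp3, an interferon-induced GTPase (log2 difference 1.14, SE 0.25, adjusted p = 0.0187). It measured 4.27 to 5.06 CPM under CD and 8.36, 7.02, 9.38 and 16.6 CPM in HFD A to D. HFD D, which also had the highest macrophage marker sum, stood apart for some genes of this list and not for others. Genes named here were picked after their values were seen. Cxcl9, a chemokine, measured 62.8 CPM in HFD D and 12.3 to 16.8 CPM in the other HFD libraries. By contrast, B2m measured 2209 CPM in HFD A and 1589 CPM in HFD D, and Nlrc5 25.6 and 25.3 CPM. The part of macrophage RNA in these values was not tested. The number that rose was 0 without CD B, CD C or CD D, 2 without HFD C or HFD D and 5 without HFD A. Of all genes, 4.56% to 5.71%, 6.56% to 6.68% and 8.98% were called in these settings, in either direction. Of 17 measured chaperones, a list that includes the mitochondrial chaperonins Hspd1 and Hspe1, 0 rose and 2 fell, against 7.27% of all genes called. The number that fell was 1 without CD A, CD C or HFD B, where 3.88% to 4.75% of all genes were called. The 2 that fell were Hsp90aa1, the inducible form of the chaperone Hsp90 (log2 difference -0.51, SE 0.11, adjusted p = 0.0213), and Hspb1, a small heat shock protein (log2 difference -1.16, SE 0.20, adjusted p = 0.00628).

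Promoter H3K9ac was dense at proteasome genes. Per kilobase of region, the members had a median of 45.5 CPM in CD, against 26.6 CPM for 1 promoter region of each gene in the table, and the medians were 49.8 CPM in the core and 48.1 CPM in the regulatory particle. The densest was Psmd11, with 104 CPM per kilobase. The lowest were Psma8 at 8.21, Psmb6 at 8.81 and the chaperone Psmd10 at 8.84 CPM per kilobase. Psmb6 had a high RNA level beside a thinly marked region, whose signal was 14.3 CPM over 1625 bases in the CD mean.

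For 5 listed genes the table gave no region within 1000 bases of the start. For 4 of them, a region did cover the RefSeq start. The Psmc1 start lay inside a region that the table assigns to it at a distance of -1396 bases. Psmc2 has 2 RefSeq starts: one lay in a region assigned to it at 1602 bases, and the other in a region assigned to the neighbour Dnajc2, which measured 34.4 ± 0.859 CPM in CD and 34.5 ± 1.55 CPM in HFD (adjusted p = 0.998). Psmd13 shares a region with the neighbouring gene Sirt3, and Psme2 one with Rnf31. The regions shared with Sirt3 and Rnf31 measured 78.7 ± 7.08 CPM in CD and 77.7 ± 3.55 CPM in HFD for Psmd13, and 125 ± 2.39 and 136 ± 4.40 CPM for Psme2 (SD, n = 3 each), and neither passed the test (adjusted p = 0.974 and 0.569). The exception was Psmb11, whose start no region touched. Of 38 members with a RefSeq promoter window, 37 (97.4%) touched an H3K9ac region, against 46.9% of all 32851 windows. A member counted if any of its windows touched a region.

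Between the diets, 1 of 42 promoter regions passed the threshold with edgeR's quasi-likelihood test, against 2.73% of all promoter regions. At an unadjusted p under 0.05 there were 3 of 42 (7.14%), against 10.4%. For 41 of 42 regions (97.6%) the 95% interval lay within a 1.5-fold difference, against 77.3% of all promoter regions, and Psma8 was the exception. Median log2 differences were -0.08 in the core and -0.05 in the regulatory particle, against 0.01 over all genes. Estimates were below 0 for 30 of 42 members, including 8 of 8 alpha subunits and 13 of 14 regulatory subunits, and for 6283 of 13830 promoter regions.

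The regions of Psma2, Psma3, Psma8, Psmb1, Psmd4, Psmd7, Psmd11 and Psme1 had all 3 HFD libraries below all 3 CD libraries. These 8 of 42 (19%) stand beside 6.2% of all promoter regions. With library totals in place of TMM factors they were 7 of 42 (16.7%), against 6.44%. In the other direction there was 1 of 42, Psmb3, against 8.6% of all promoter regions. Most of these gaps were small. Psma3, for example, measured 117, 119 and 121 CPM in CD A, C and D and 112, 112 and 114 CPM in HFD A, B and D, a log2 difference of -0.08 (SE 0.08, adjusted p = 0.80). It was named after its values were seen. The mean log2 level over all 41 parts was 0.02, 0.02 and -0.04 in CD A, C and D and -0.03, -0.08 and -0.05 in HFD A, B and D, so CD D lay within the HFD range.

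The called region was that of Psmd11. It spans 1648 bases at chr11:80428410-80430057 (mm10) and covers the start of the gene, which the table places at 80428615 on the plus strand, and part of an intron. It measured 168, 176 and 172 CPM in CD A, C and D and 138, 133 and 144 CPM in HFD A, B and D. Every HFD library lay clearly below every CD library. The means were 172 ± 4.12 and 138 ± 5.69 CPM (SD, n = 3 each), so H3K9ac fell by 0.31 on the log2 scale (SE 0.07, 95% interval -0.46 to -0.17, adjusted p = 0.00545). The call was lost without CD C (adjusted p = 0.0669), without HFD A (adjusted p = 0.0625) and without HFD B (adjusted p = 0.0897), and the log2 difference then lay between -0.31 and -0.29.

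A second region of Psmd11, 341 bases inside an intron at chr11:80431025-80431365 (mm10), also fell. It measured 2.32, 3 and 2.18 CPM under CD and 0.852, 1.30 and 1.21 CPM under HFD, with no overlap (log2 difference -1.16, SE 0.33, adjusted p = 0.0363). Its level was low, and 3 counts correspond to 0.247 to 0.324 CPM in these libraries. Of 69 regions beyond promoters that the table assigns to members, 2 passed the threshold, against 2.28% of all such regions. The other one, at chr14:14067672-14068206 (mm10), is nearest to the start of the lid gene Psmd6, 52964 bases away, and lies in an intron of another gene, Atxn7. It measured 5.72, 6.42 and 6.14 CPM under CD and 13.8, 11.3 and 7.36 CPM under HFD, a log2 difference of 0.84 (SE 0.19, adjusted p = 0.00371). All HFD libraries were higher, HFD D by the least.

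**Figure D4:**
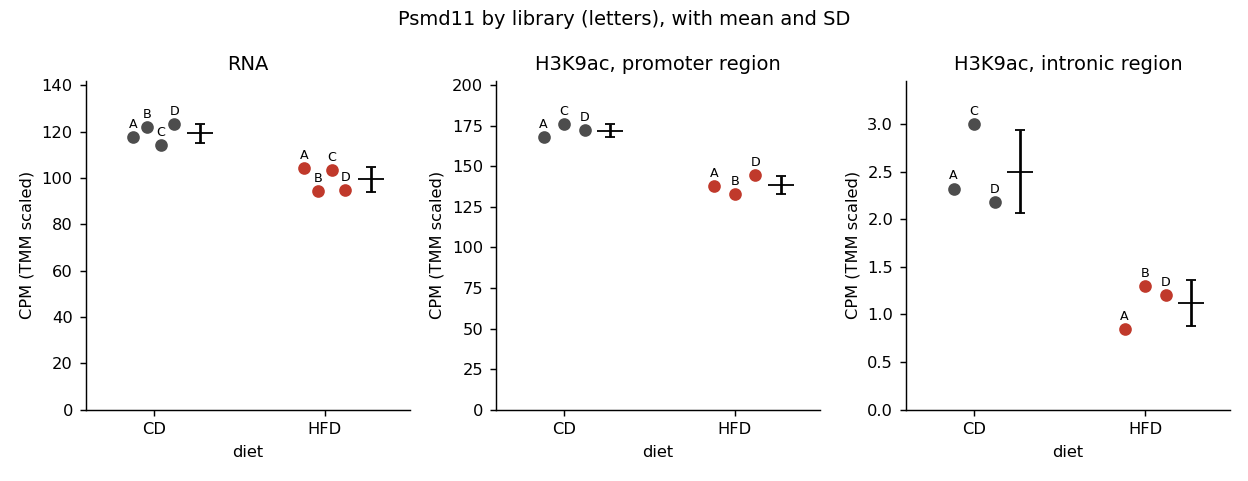
Psmd11 in every library: RNA CPM (left, 4 libraries per diet), H3K9ac CPM in the promoter region (middle, 3 per diet) and in the intronic region (right, 3 per diet). Letters name the libraries, and the black marks are mean and SD. All HFD values lie below all CD values in the 3 panels, and the axes start at 0.

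Next to these, the largest increases were those of Psmb10 and Psmb6, and the other decrease named by the rule was that of Psma8. None passed the test. Psmd10 (-0.20) and Psmd4 (-0.19) came next among the decreases, with adjusted p of 0.783 and 0.53. Psmb10 measured 95.6, 88.4 and 67.2 CPM in CD A, C and D and 101, 94.7 and 89.5 CPM in HFD A, B and D. CD D was low and the rest overlapped, with a log2 difference of 0.18 (SE 0.09, adjusted p = 0.443) that became 0.06 without CD D and 0.29 without CD A. Psmb6 measured 15.5, 14.2 and 13.2 CPM under CD and 16.8, 16.7 and 14.4 CPM under HFD (log2 difference 0.16, SE 0.14, adjusted p = 0.773). Psma8 measured 2.59, 2.42 and 2.77 CPM under CD and 1.53, 1.74 and 1.98 CPM under HFD, without overlap but at low counts (log2 difference -0.57, SE 0.29, adjusted p = 0.455). Psmf1 and Psmd9, the genes whose RNA was higher in every HFD library, had H3K9ac differences of 0.06 (adjusted p = 0.895) and 0.04 (adjusted p = 0.925), each with an SE of 0.09.

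RNA and promoter H3K9ac differences had the same sign in 26 of 41 proteasome parts. The share over all genes was not counted. Estimates lay below 0 for 28 of 45 parts in the RNA and 30 of 41 in the H3K9ac. With such a lean in both assays, many signs match without any link, so the count was not read as one. Across these genes the correlation of the log2 differences was 0.005 (Pearson) and 0.24 (Spearman), against 0.48 and 0.34 across 10101 genes with both values. Genes are not independent replicates, and these are descriptions. Psma8, with a higher RNA (0.33) and a lower H3K9ac estimate (-0.57) at low counts, lay farthest from the others. The correlations include Psma8 and were not computed without it. A Pearson value can rest heavily on 1 such gene, so 0.005 was not read as a lack of relation between the assays. Psmd11 had the lowest RNA estimate of all parts and, after Psma8, the lowest H3K9ac estimate.

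**Figure D5:**
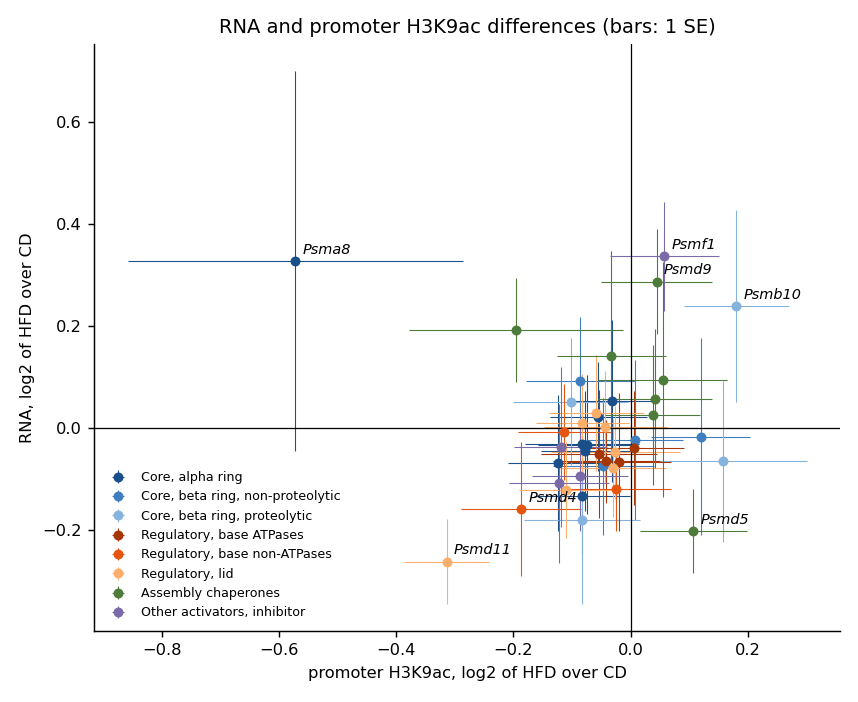
RNA difference against promoter H3K9ac difference (log2 of HFD over CD, 1 SE bars) for 41 proteasome parts, coloured by place in the complex. Most points lie within 0.2 of 0 on both axes. Psmd11 lies at -0.31 for H3K9ac and -0.26 for RNA, and Psma8 at -0.57 and 0.33.

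The promoters of 4 genes whose RNA did not overlap between the diets are shown from the RefSeq table (assembly GRCm38.p6), as the 250 bases before the start, 5′ to 3′ on the gene's strand. Only members named by the rule that hold a motif match could be shown, so a match in each was fixed beforehand. Psmd5, whose RNA also did not overlap, was not named by the rule and is not shown. Capitals mark matches to the motifs searched, and matches of different motifs did not overlap in them. Psmd11 (chr11:80428365-80428614, plus strand) holds a YY1 match and, on the opposite strand near the start, an ETS match. Psmd2 (chr16:20651402-20651651, plus strand) holds an ETS match on the opposite strand. Psmd9 (chr5:123227940-123228189, plus strand) holds an E-box and the core of an antioxidant response element, to which Nfe2l1 and Nfe2l2 bind. Psmf1 (chr2:151741311-151741560, minus strand) holds a match to the heat shock motif.
Psmd11: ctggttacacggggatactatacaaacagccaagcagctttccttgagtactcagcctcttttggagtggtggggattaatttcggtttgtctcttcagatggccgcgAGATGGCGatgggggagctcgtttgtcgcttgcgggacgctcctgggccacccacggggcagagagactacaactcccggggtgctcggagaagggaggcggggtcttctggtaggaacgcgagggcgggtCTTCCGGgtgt
Psmd2: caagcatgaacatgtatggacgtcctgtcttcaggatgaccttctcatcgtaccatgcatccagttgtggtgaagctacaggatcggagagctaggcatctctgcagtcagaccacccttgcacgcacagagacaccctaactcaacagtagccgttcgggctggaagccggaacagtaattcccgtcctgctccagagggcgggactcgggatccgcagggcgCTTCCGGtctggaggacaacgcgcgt
Psmd9: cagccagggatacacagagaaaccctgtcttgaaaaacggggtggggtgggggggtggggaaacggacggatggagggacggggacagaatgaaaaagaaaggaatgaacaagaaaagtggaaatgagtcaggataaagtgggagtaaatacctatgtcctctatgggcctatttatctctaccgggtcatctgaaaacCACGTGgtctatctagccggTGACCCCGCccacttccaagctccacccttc
Psmf1: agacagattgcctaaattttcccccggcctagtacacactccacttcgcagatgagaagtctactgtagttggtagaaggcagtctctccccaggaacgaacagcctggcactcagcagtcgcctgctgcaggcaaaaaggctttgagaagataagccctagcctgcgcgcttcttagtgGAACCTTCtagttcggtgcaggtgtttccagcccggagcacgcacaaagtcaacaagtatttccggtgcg

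Over all members, 7 motifs were searched on both strands of the RefSeq windows, which run from 250 bases before to 50 after the start, for the 38 members that have one. A member counted once if any of its windows held the motif, whereas the shares set beside it are per window. The 38 members have 41 windows. The ETS motif (CCGGAAG) was found in 14 of 38 members (36.8%), against 8.86% of all 32851 windows and 16.2% of the 15404 windows that touch an H3K9ac region. It was found in 9 of 14 regulatory genes, Psmc1, Psmc2, Psmc6, Psmd2, Psmd4, Psmd6, Psmd11, Psmd12 and Psmd13, and in 1 of 13 core genes, Psma6. The 13 core genes include Psmb11, and 7 genes of the particles had no window. The difference between the particles was not tested. The YY1 motif (AGATGGCG) was found in 5 of 38 (13.2%), against 1.95% of all windows and 3.43% of those touching a region. These were Psmb6, Psmc4, Psmc5, Psmd5 and Psmd11.

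The CCAAT box, to which NF-Y binds, was in 13 of 38 members (34.2%), against 37.4% of all windows and 36% of those touching a region, with 7 of 13 core and 4 of 14 regulatory genes. Of these core genes, Psma6 and Psmb11 held it only in a window that no region touched. The antioxidant response element core (TGACNNNGC) was in 6 of 38 (15.8%), against 12.4% and 14.5%: Psmb5, Psmb6, Psmc6, Psmd9, Psmd12 and Psme4. The NRF1 site (GCATGCGC) was in 3 of 38 (7.89%), against 2.71% and 4.9%. The E-box (CACGTG) was in 4 of 38 (10.5%), against 7.15% and 9.95%, and the heat shock motif (GAANNTTC) in 2 of 38 (5.26%), against 7.86% and 5.58%. Base composition differed too: the members' windows had a median GC content of 57.3% and 19 CpG dinucleotides, against 52.7% and 7 over all windows. A match is a run of letters and not a shown binding site, and its part in the values above was not tested.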

How the data were processed

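Per the file headers, the authors deposited raw read counts per gene and log2 FPKM for the RNA, raw read counts per region for the H3K9ac, and in both tables a p-value, a false discovery rate and a log2 fold change (read only for the sentence on the authors' deposited table). Coordinates are in mm10, per the submitters' processing notes. The alignment, counting, use of strand and peak calling were not given in the sources used here. H3K9ac regions are 1 set common to all libraries. Regions listed more than once (71) were used once, 4999 blank lines of the RNA table were dropped, and 3 of the 17 libraries were not analysed here. No value column was left unmatched (0).

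Counts were fitted per assay with edgeR 4.0.16 in R 4.3.3 (TMM factors, glmQLFit and glmQLFTest, diet only, two-sided), with Benjamini-Hochberg adjustment over all 12334 genes or 57499 regions and a threshold of 0.05. Filtering on low counts removed nothing, as the lowest mean count in the RNA table was 13.9. CPM are TMM scaled, and log2 levels used a prior count of 2. Alternatives were DESeq2 1.42.0, library totals, the upper range by level, the replicate letter as a block, other promoter distances, and each library left out. Scaling by exon length, and the gene lists with each library left out, were added after seeing the data. The scripts were tested on simulated data.

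Depth was 31802893 to 37596560 counts per RNA library and 9255635 to 12149497 in the H3K9ac, and no pair of libraries agreed within sampling noise. A floor of 3 counts covers counting error only.

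The members, the lists and the rule for named genes were chosen with earlier results of these data known. Members with values in every library are those past the threshold in either assay, the smallest RNA p in each subcomplex, the highest and lowest level in each particle, and the 2 largest rises and 2 largest falls of promoter H3K9ac.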

Additional observations from a re-analysis of the deposited data

Results flagged for a closer look

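In 34 sets of 4 RNA libraries (the named genes and particle means, per diet), a library was marked when its gap to the nearest other, divided by the range, exceeded Dixon's value of 0.829. Chance marks about 1 in 20 such sets. There were 3: Psmb10 in CD, where CD A stood above the other libraries (0.855), Psmc2 in HFD, where HFD A stood above them (0.841), and Psmd9 in HFD, where HFD A stood above them (0.865).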

How the results depend on the processing

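The number of members called in the RNA was 0 in each direction, and became 1 higher and 1 lower with DESeq2, and 2 lower with scaling by exon length. Leaving out 1 library at a time gave 0 to 1 lower. In the H3K9ac the 1 lower call became 0 to 1, and the regulatory median of -0.05 ranged from -0.0907 to -0.0343. Outside that range, it was -0.0283 with the replicate block. Deviations of same-letter libraries had correlations of 0.295, 0.061, 0.235 and -0.222 in the RNA and 0.09 and 0.081 in the H3K9ac. Those of libraries with different letters ran from -0.414 to 0.368 in the RNA and from -0.118 to 0.046 in the H3K9ac. With the replicate block the H3K9ac core median moved from -0.08 to -0.034, all genes called went from 897 to 826, and no call of a member changed.

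With 1 library left out, small RNA differences turned sign, ranging from -0.0024 to 0.5562 for Psma8, -0.0429 to 0.1546 for Psmb1, -0.2491 to 0.0341 for Psmb6, -0.078 to 0.1321 for Psmb7, -0.1649 to 0.0191 for Psmc1 and -0.1025 to 0.0369 for Psmd13. The values past 0 came without HFD A for Psma8, Psmb1 and Psmb7 and without HFD D for the other three, with Psmd13 also at 0.0003 without CD A. H3K9ac at Psmf1 ranged from -0.0214 (without HFD D) to 0.1074. Scaling by exon length gave -0.0047 for Psmb7. The cause was not tested.

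Over all genes, 897 RNA calls became 1405 with DESeq2, 1447 with scaling by exon length, 526 in the upper range by level and 478 to 1107 with 1 library left out. Of regions, 1372 were called, and 798 with DESeq2, 859 in the upper range and 576 to 1862 with 1 library left out. Depth limits Psma8 most, at 0.400 to 1.46 CPM in the RNA.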
